A study of Mus musculus with 32 samples.

Results

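The CpG dinucleotide reads the same on both DNA strands, so each CpG carries a cytosine on the forward strand and, 1 base further, a cytosine on the reverse strand. The CpGs described here were those of the 19 mouse autosomes at which each of these cytosines had 10 or more reads in every one of 16 retina libraries. They numbered 321528, or 30.7% of the 1045775 autosomal CpGs that had 10 or more reads in every library with the strands added. They are called pairs below. The other 724247 autosomal CpGs were too thinly read on at least 1 strand, and 411125 of them had reads from 1 strand only.

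The retinas came from female C57 BL/6J mice of 21 weeks, 1 retina of 1 mouse per library, studied by reduced representation bisulfite sequencing (RRBS). The 8 spaceflight mice had spent 37 days in orbit (5 right and 3 left retinas). The 8 ground control mice were kept in the same kind of cage on Earth (5 right and 3 left retinas), and the carcasses of both groups were frozen at the end and thawed for dissection. The RNA libraries of the series were not used.

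In vertebrate cells the methyl group is placed on the cytosines of both strands, and after DNA replication the maintenance methyltransferase DNMT1, guided by UHRF1, copies the pattern of the old strand onto the new one. A level between the extremes at 1 CpG is therefore usually a mixture of DNA copies methylated on both strands and copies methylated on neither, as at imprinted genes or on the inactive X chromosome of females. RRBS cuts DNA at CCGG with the enzyme MspI and converts unmethylated cytosines to uracil, after which the strands no longer match and are read separately. The reads of the forward and of the reverse cytosine thus came from different DNA molecules, and methylation of 1 strand of a single molecule could not be read. A cytosine that is a T in these mice, or in another copy of the sequence whose reads aligned there, also counts as unmethylated in such reads.

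The pairs that the results turn on are shown first, with 14 bases on either side of the CpG. Each is read 5′ to 3′ on the strand with the higher methylation, in GRCm38 and from RefSeq, with the CpG and the 2 bases on each side in capitals, since those flanking bases differed between the more and the less methylated strand. The first is a pair whose forward strand was methylated and whose reverse strand was not (nearest start Gm24635, chr13:80049441-80049470, forward strand). The next had the largest difference the other way (nearest start Sirpb1b, chr3:15582586-15582615, reverse strand). Then follow pairs in Vmn2r29 (chr7:7278186-7278215, reverse), Sorbs3 (chr14:70191776-70191805, forward), Myo10 (chr15:25773943-25773972, reverse), Lrp1 (chr10:127620194-127620223, forward) and Tjp3 (chr10:81291189-81291218, reverse). The last is the pair with the smallest p between spaceflight and ground control, in Parvaos (chr7:112535333-112535362, forward).
Gm24635: atgggggtctgcCCCGCCtgagaggtttgt
Sirpb1b: tggctccagacaTCCGGCcaccttcctggc
Vmn2r29: ctgcctcgtgggGACGGAtctgggacccga
Sorbs3: ggagaggcggagGCCGCCgggaggaaacgc
Myo10: cgccctgggcaaCCCGCCtccggtggtcac
Lrp1: tgcaaaaggcccTCCGCCcccttttgcagc
Tjp3: ccggcaaagggaCTCGCCcaccgttccttc
Parvaos: tgcgccttcgaaGCCGGCtcttccgctagc

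The libraries held 61652709 to 80242659 reads on CpG cytosines in spaceflight mice and 59572205 to 105298542 in ground control mice. The median number of reads per forward cytosine of a pair was 36.8 ± 7.15 in spaceflight and 33.1 ± 6.62 in ground control libraries (SD, n = 8 each; exact permutation p = 0.328). With this depth the methylation of 1 cytosine in 1 library has a wide counting error, so the strands were compared over all 16 libraries. Ground control replicate 1 stood apart from the other 7 ground control libraries, with a pair level of 18.94% against 19.24 to 19.31% and an excess difference between the strands (defined below) of 3.85 points against 3.14 to 3.39, and the number of called pairs and the group differences in level and in excess are also given without it. Of the pairs just below the depth rule, 19456 had a lowest count of 9 reads and a mean level of 18.8%, and 21236 just inside it had a lowest count of 10 reads and a mean level of 17.6%.

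The pairs were CpG-dense and mostly unmethylated. Of them, 70.6% lay within 1000 bp of a transcript start, against 44.1% of the other autosomal CpGs, and 53.1% against 36.4% lay in exons. They had a median of 20 CpGs in the surrounding 200 bp, the others 9. Repeats, marked as soft-masked bases in the genome, held 3.89% of the pairs and 11.8% of the others. The mean methylation of the pairs was 19.2% ± 0.115 and that of the other CpGs 44.1% ± 0.275 (SD over 16 libraries), and the pairs minus the others gave -24.8 points in an exact sign-flip test over the libraries (p = 3.05e-05, the smallest that 16 libraries can give, and 4.27e-05 after adjustment over 7 within-library comparisons). The same CpGs were compared in each library, so this p covers only how the difference varied between libraries. The part of CpG density and place in it was not tested. CpGs in the middle of an MspI site made up 16.3% of the pairs and 43.1% of the others. Of the pairs inside a fragment, 99.98% had an MspI site within 75 bases, the read length, on both sides, which is what reading both ends requires.

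Levels differed widely between lists of genes of known function, while the forward and reverse means over the pairs of a gene lay close together. Pairs were assigned to a gene within 2000 bp of one of its starts. The homeotic Hox genes, which set position along the body axis, had 840 pairs in 39 of 39 genes with a mean level of 1.89% ± 0.0668 in spaceflight and 1.96% ± 0.174 in ground control mice. Germline genes, which are silenced by promoter methylation in body cells, had 96 pairs in 13 of 16 genes with a level of 66.5% ± 0.422 in spaceflight and 66.4% ± 0.747 in ground control mice. Among them the synaptonemal complex gene Sycp1 had 95.3% on the forward and 96.4% on the reverse strand and Hormad1, of the same meiotic axis, 91.4% and 91.9%, while the RNA-binding gene Dazl had 11.9% and 12.1%. Imprinted genes, where 1 parental allele is methylated, had 275 pairs in 22 of 30 genes with a level of 32.3% ± 0.686 in spaceflight and 33.5% ± 1.10 in ground control mice, and 179 of these pairs lay between 30 and 70%. Plagl1, a zinc finger gene with a maternally methylated promoter, had 46.4% on the forward and 45.04% on the reverse strand over 27 pairs, and Zrsr1 47.7% and 46.8% over 15 pairs. In such means, differences of opposite sign cancel. Without regard to sign the median difference of single pairs was 5.98 points in Plagl1 (largest 13.5) and 3.20 in Zrsr1 (largest 24.3). It was 0.971 in Sycp1, 1.30 in Hormad1 and 0.637 in Dazl.

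The lists of retinal cell types were low. Photoreceptor genes had 50 pairs in 10 of 24 genes at 11.5% ± 0.556 in spaceflight and 12.4% ± 1.40 in ground control mice, among them the cone transducin gene Gnat2 (1.77% ± 0.272 in spaceflight and 2.36% ± 0.532 in ground control mice) and the outer segment gene Rom1 (0.926% ± 0.318 in spaceflight and 1.19% ± 0.466 in ground control mice). Bipolar cell genes had 226 pairs in 10 of 13 genes at 4.58% ± 0.187 in spaceflight and 4.52% ± 0.1496 in ground control mice. Among these, Prkca, a kinase of rod bipolar cells, was at 0.732% ± 0.164 in spaceflight and 0.683% ± 0.102 in ground control mice. Müller glia genes (160 pairs in 9 of 9 genes) were at 1.81% ± 0.207 in spaceflight and 1.78% ± 0.207 in ground control mice, and ganglion and amacrine cell genes (358 pairs in 13 of 14 genes) at 3.31% ± 0.0655 in spaceflight and 3.30% ± 0.0961 in ground control mice. The methylation machinery itself, the Dnmt, Tet, Uhrf1 and related genes, had 357 pairs in 13 of 14 genes at 1.86% ± 0.0740 in spaceflight and 1.85% ± 0.0805 in ground control mice (SD, n = 8 in each group throughout). The ranges of the groups overlapped in every list. Retina is a mixture of cell types, so a level of 1 list is that of all retinal cells together.

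The forward and reverse cytosines agreed closely. Over all pairs Pearson's r between the strands was 0.985 to 0.990 in the 16 libraries, and over the 40864 pairs with a mean level of 10 to 90% it was 0.878 to 0.908, a description across CpGs that share their library. Averaged over the 16 libraries, 95.7% of the pairs differed by under 5 points. The plot of forward against reverse methylation shows how narrowly most pairs followed the diagonal.

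**Figure D1:**
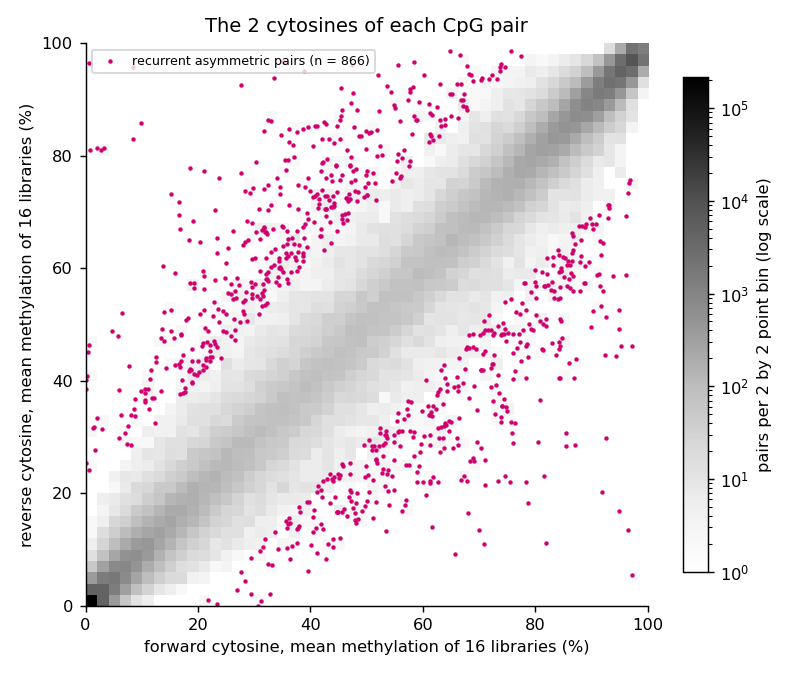
Mean methylation (%) of the forward cytosine (x axis) against that of the reverse cytosine (y axis) over 16 libraries. Grey bins of 2 by 2 points show the number of pairs on a log scale, and the magenta points are the 866 recurrent asymmetric pairs, which lie at 20 points or more from the diagonal on both sides of it.

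How far the strands differed beyond read counting depended on the level. The excess difference, the root of the mean squared forward minus reverse difference after the binomial variance of the reads on both strands was subtracted, was 1.05 points in the 241717 pairs at 0 to 10%, 75.2% of all. It was 7.002 points in the 10392 pairs at 10 to 30%, 11.4 in the 13255 pairs at 30 to 70%, 6.22 in the 17217 pairs at 70 to 90% and 2.54 in the 38947 pairs at 90 to 100%. The level here is the mean of both strands, so a pair with a large difference falls into the middle classes by construction, and the printed Gm24635 and Sirpb1b pairs, with 1 strand near 0 and the other near 100%, are among them. Part of it came back in every library: the component shared by all libraries made up 77.8% of the squared excess at 30 to 70%, 66.2% at 10 to 30% and 55.1% at 70 to 90%, but 28.0% at 0 to 10% and 16.9% at 90 to 100%.

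**Figure D2:**
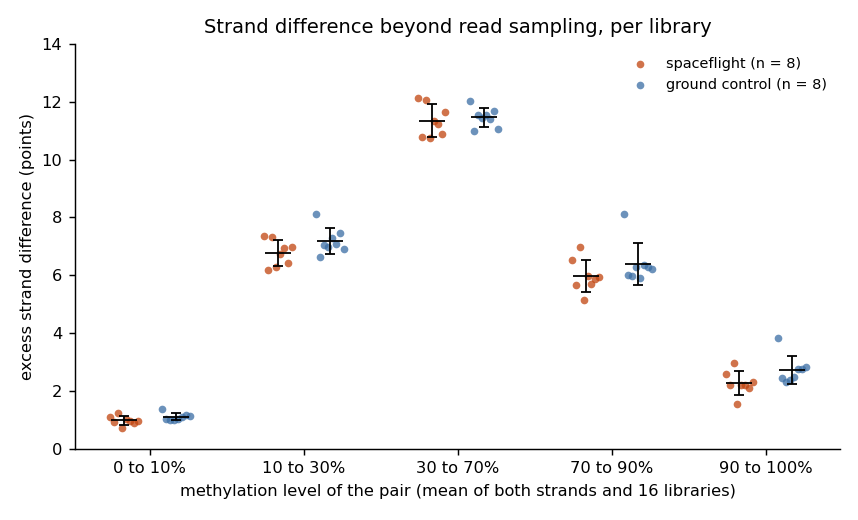
Excess difference between the strands (points, y axis) by the level of the pair (x axis), 1 point per library with the mean and SD of 8 spaceflight libraries (left) and 8 ground control libraries (right). It peaks at 30 to 70%, at 10.7 to 12.1 points in spaceflight and 10.99 to 12.03 points in ground control libraries, and 1 ground control library stands above the others at 70 to 100%.

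A pair was called recurrent asymmetric when a Mantel-Haenszel test of reads on strand, stratified by library, gave an adjusted p of at most 0.05, when the mean difference was at least 20 points and when its sign was the same in all 16 libraries. This held for 866 pairs (percent called 0.269), 417 with the forward cytosine higher (0.13) and 449 with the reverse cytosine higher (0.14). A difference of 20 points fixes the mean level between 10 and 90%, where they were 2.12% of the pairs, and 631 lay at 30 to 70%, where they were 4.76%. The adjusted p alone was met by 4276 pairs (1.33%). The largest adjusted p among the 866 was 0.00786. Their median difference was 28.03 points without regard to sign, 357 reached 30 points and 45 reached 50. The called pairs nearest the 20 points differed by 20.013, 20.065 and 20.072 points, and the nearest pairs left out by 19.971, 19.976 and 19.996 points. Leaving out 1 library at a time gave 874 to 943 pairs (943 without ground control replicate 1), of which at least 844 were among the 866, and 355 and 76 of the 866 had at least 20 or 30 reads per strand in every library.

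The same pairs appeared in separate mice. Chosen in the 8 spaceflight libraries alone, 196 pairs met the rule (0.061), and 192 of them (98.0%) had the same sign in all 8 ground control libraries, with a median difference of 43.1 points in spaceflight and 40.1 in ground control mice. Chosen in the 8 ground control libraries alone, 125 pairs met it (0.0389), and 122 (97.6%) had the same sign in all 8 spaceflight libraries, with a median of 43.4 points in spaceflight and 43.3 in ground control mice. All mice were of 1 inbred strain, so mice do not stand for different DNA sequences here.

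Among the pairs with the forward cytosine higher, the largest difference lay in a repeat far from genes, 109208 bp from the start of Gm24635 (the sequence printed above). Its forward cytosine had 90.5, 98.4 and 100% methylation (lowest, median and highest library) in spaceflight and 88.2, 100 and 100% in ground control mice. Its reverse cytosine had 2.0, 4.6 and 11.8% in spaceflight and 0, 3.9 and 15.8% in ground control mice. The strands did not overlap in any library, and the mean difference was 91.8 ± 4.76 points (SD over 16 libraries). A second pair 24 bases away in the same fragment was methylated on both strands, at 99.1% forward and 94.6% reverse.

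A pair 9535 bp from the start of Gm35008 (chromosome 4, position 10138077) differed by 83.2 ± 8.70 points, and 1 in a repeat 654152 bp from the start of Nxph1, which encodes a neurexin ligand (chromosome 6, 9604171), by 78.1 ± 6.86. In an intron of Cdk8, the kinase of the Mediator complex (chromosome 5, 146261146), the forward cytosine had 84.0, 90.1 and 95.7% in spaceflight and 85.3, 95 and 97.8% in ground control mice, and the reverse cytosine 15.8, 18.3 and 21.8% in spaceflight and 19.1, 22.1 and 26.1% in ground control mice. The strands of this pair were read to very different depths, with a median of 47 forward and 5093 reverse reads. The other pair of that fragment, 27 bases before, was called as well, at 92.6% forward and 29.8% reverse. An intron of Gm36876 also had unequal depth (66.5 forward and 2604 reverse reads) at a pair with a difference of 60.4 ± 4.5 points, and all 3 pairs of its fragment were called. Depth moved with the call beyond these: the reads of the strands were over 4-fold apart in 25 of the 866 called pairs (2.89%) and in 0.830% of all pairs at 10 to 90%, and a strand had a median of over 500 reads in 18 (2.08%) and 0.614%. Restricted to pairs whose strands were within 2-fold of each other, 708 pairs were called. The part of other genomic copies in the deep strands was not tested.

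The pair printed for Sirpb1b, outside genes and 7533 bp from the start of that gene, was unmethylated on the forward strand and methylated on the reverse strand. Its forward cytosine had 0, 0 and 3.6% in spaceflight and 0, 0 and 3.1% in ground control mice. Its reverse cytosine had 91.3, 98.1 and 100% in spaceflight and 85.7, 96.7 and 100% in ground control mice, and the mean difference was -95.9 ± 5.01 points. This pair lies in a repeat at an MspI site, and no library came near the middle on either strand. In an intron of Pcdh7, a protocadherin of cell adhesion (chromosome 5, 58000647), the forward cytosine had 2.0, 7.0 and 14.6% in spaceflight and 5.3, 9.7 and 12.8% in ground control mice, and the reverse cytosine 93.4, 94.5 and 100% in spaceflight and 90, 96.7 and 100% in ground control mice. It too lies at an MspI site in a repeat.

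In Vmn2r29, a vomeronasal pheromone receptor of a large gene family, all 5 pairs of a fragment were called. At the pair printed above, 89 bp from its start in an exon, the forward cytosine had 0, 0 and 4.3% in spaceflight and 0, 0 and 4.3% in ground control mice. The reverse cytosine had 74.4, 79.5 and 83.3% in spaceflight and 75, 83.8 and 87.2% in ground control mice. The other pairs of the fragment, 13 to 40 bases away, had 2.0 to 8.5% on the forward and 81.0 to 83.0% on the reverse strand. All pairs of the fragment thus differed the same way in these reads. Whether the gene itself is methylated on 1 strand only was not tested. Reads of the family's near-identical copies may be shared, and the level of this gene is uncertain for that reason. The remaining named pairs with the reverse cytosine higher were 4 outside genes (the nearest starts, those of Gm46796, Gm52558, Kcnj3 and LOC115489831, lay 246349, 3706, 351601 and 151346 bp away) and 1 in an intron of Stx8 (an endosomal SNARE), with mean differences of -75.8 to -60.4 points. Those with the forward cytosine higher lay outside genes 28722 bp from the start of Erbin, in 3110070M22Rik and in an intron of Srcin1 (a Src kinase regulator), with 58.5 to 70.8 points.

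**Figure D3:**
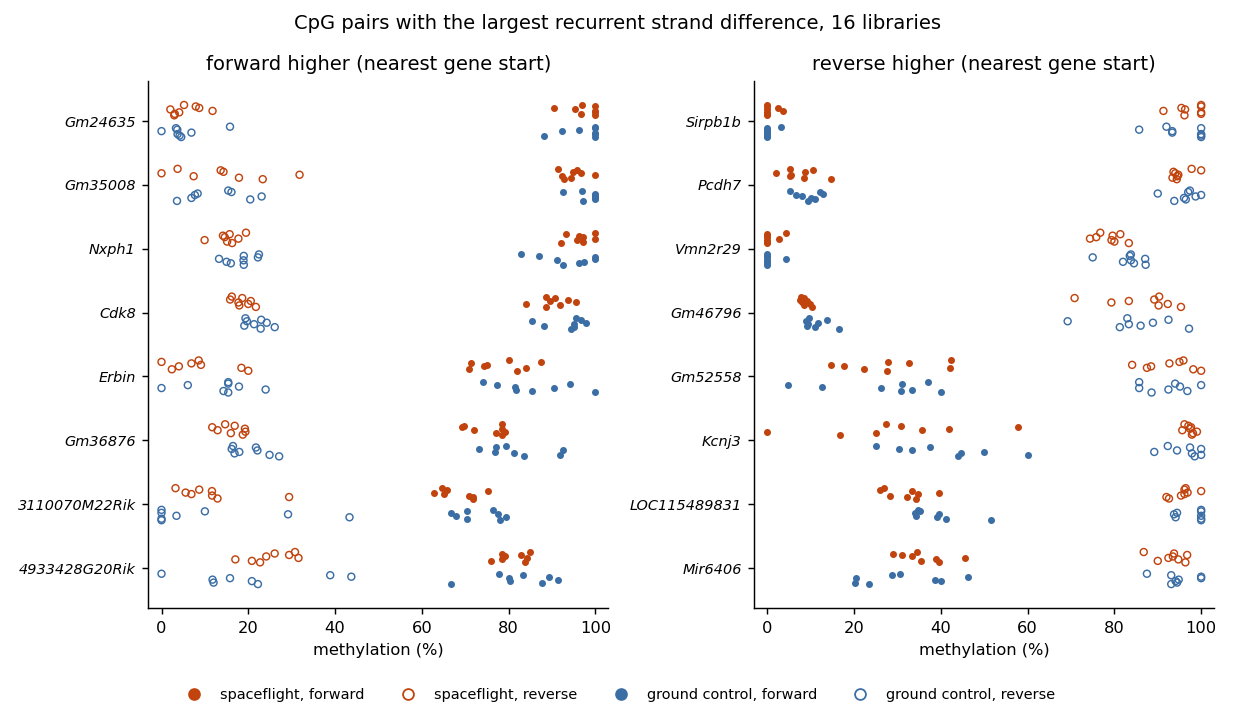
Methylation (%, x axis) of the forward (filled) and reverse (open) cytosine in each of 16 libraries at the 8 pairs per direction with the largest recurrent difference, named by the nearest gene start, with spaceflight (orange) above ground control (blue) in each row. In every library the filled points lie right of the open ones in the left panel, and left of them in the right panel.

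Most asymmetric pairs stood alone in their fragment. Of 636 fragments with a called pair inside, 401 held another pair as well, and in 335 of these exactly 1 pair was called, while in 23 all were. The uncalled neighbours at 10 to 90% (612 pairs) had a median difference of 6.94 points without regard to sign, against 2.98 over all pairs at 10 to 90%. Of 66 fragments with several called pairs, 27 held called pairs of both signs. Read from the same fragment and the same reads, neighbouring CpGs could thus lean to opposite strands.

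Such opposite neighbours were found close to gene starts, at pairs chosen after their values were seen. In an exon of Sorbs3, which encodes the adhesion adaptor vinexin, the pair 269 bp from the start had 65.7, 80.0 and 92.9% on the forward strand in spaceflight and 58.6, 68.2 and 76.9% in ground control mice, and 12.9, 23.02 and 33.3% on the reverse strand in spaceflight and 0, 18.8 and 40.0% in ground control mice. Its difference was 51.3 ± 14.3 points, and the pair 7 bases before it had 36.1% forward and 71.3% reverse, a difference of -35.2 points. At the start of Myo10, an unconventional myosin of filopodia, 3 pairs within 21 bases differed by -55.1, -35.2 and 17.6 points. The first of these had 10.3, 13.6 and 28.6% on the forward strand in spaceflight and 11.8, 17.9 and 21.7% in ground control mice, and 63.0, 71.5 and 89.5% on the reverse strand in spaceflight and 39.4, 71.7 and 82.6% in ground control mice. The library values of its strands did not overlap.

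In an intron of Lrp1, an endocytic lipoprotein receptor, the pair 940 bp from the start had 56.5, 73.98 and 82.9% on the forward strand in spaceflight and 37.3, 71.6 and 76.3% in ground control mice. Its reverse cytosine had 8.1, 17.1 and 23.1% in spaceflight and 7.4, 18.9 and 24.1% in ground control mice, and a pair 15 bases on differed by -20.0 points, just under the call. In an exon of Tjp3, the tight junction protein ZO-3, the pair 64 bp from the start had 25, 33.3 and 35.6% on the forward strand in spaceflight and 10.5, 25.6 and 35.6% in ground control mice, and 60.0, 71.9 and 91.4% on the reverse strand in spaceflight and 62.2, 76.8 and 85.7% in ground control mice. A pair 27 bases before it had 25.6% forward and 24.7% reverse, so the strands agreed there. The pairs 21 and 7 bases before it differed by -20.8 and -10.8 points, the same way as the called pair. The Tjp3 fragment was thus not one of opposite neighbours. A pair in an intron of Bri3, 245 bp from the start of Gm38675, and pairs near the starts of Nav1 (a microtubule-guiding neuron navigator), 4930449E01Rik and 1700016C19Rik differed by 44.1 to 47.6 points in either direction. In all, 222 called pairs lay within 1000 bp of a start, 2.64% of the pairs at 10 to 90% there.

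Of the gene lists, 2 pairs were called among 2362 pairs, against 0.269% of all pairs. None was called among the 275 pairs of imprinted genes, of which 179 lay at 30 to 70%, a level at which 4.76% of all pairs were called. The median difference without regard to sign was 4.19 points over the 193 imprinted pairs at 10 to 90%, against 2.98 over all pairs at 10 to 90% and 4.28 over all pairs at 30 to 70%. In an exon of Gpr179, an orphan receptor of ON bipolar cells, the forward cytosine 695 bp from the start had 39.4, 44.5 and 53.8% in spaceflight and 26.7, 37.3 and 53.5% in ground control mice, and the reverse cytosine 60.0, 67.5 and 81.5% in spaceflight and 57.9, 65.8 and 74.7% in ground control mice. In an intron of Dnmt3a, a de novo DNA methyltransferase, 78 bp before one of its starts (chromosome 12, 3891666), the forward cytosine had 56.5, 72.8 and 75% in spaceflight and 46.7, 61.4 and 73.0% in ground control mice. Its reverse cytosine had 27.6, 38.3 and 53.8% in spaceflight and 23.1, 36.9 and 53.3% in ground control mice, and the difference was 26.7 ± 11.6 points. The strands of the Dnmt3a pair overlapped between libraries, but the forward cytosine was higher in each library, by at least 3.08 points. The mean level over the 85 pairs near starts of this gene was 2.40% forward and 2.20% reverse.

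The place of a pair in its fragment moved the strands by a small amount. At 3 to 9 bases from the left MspI site, where forward reads begin, the forward minus reverse difference averaged -2.40 ± 0.296 points over 2165 pairs at 10 to 90% (SD over 16 libraries), and at 3 to 9 bases from the right site, where reverse reads begin, 1.81 ± 0.295 points over 2231 pairs. The strand whose reads began there was thus the lower one. From 10 bases on the averages lay between -0.421 and 0.295 points.

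Pairs at an MspI site, whose cytosines are read from the fragments on either side of the cut, had a mean level of 29.02% ± 0.267, against 17.3% ± 0.0874 inside fragments (SD over 16 libraries), a difference of 11.7 points in an exact sign-flip test (p = 3.05e-05, adjusted 4.27e-05). Here too the same CpGs were compared in each library, and the p covers only the variation between libraries. Forward minus reverse was -0.0157 points at the sites and -0.00969 inside (exact sign-flip p = 0.331). The excess difference was 3.80 ± 0.495 points at the sites and 3.14 ± 0.178 inside, 0.662 points higher in the exact sign-flip test (p = 3.05e-05, adjusted 4.27e-05). Among pairs at 10 to 90% this turned round, with 7.80 ± 0.897 points at the sites and 8.61 ± 0.383 inside (exact sign-flip p = 0.00061, adjusted 0.000712). Ground control replicates 1 and 8 went the other way in that comparison, with an excess of 10.3 and 8.28 points at the sites and 9.29 and 8.25 points inside. Of the called pairs, 149 were at a site, 1.45% of the site pairs at 10 to 90%, and 26 were in repeats, 1.36% of the repeat pairs at 10 to 90%, against 2.12% of all pairs at that level.

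The bases beside the CpG differed between the higher and the lower strand of called pairs. Inside fragments, C followed the CpG on the higher strand in 56.9% of 717 called pairs, against 29.4% of uncalled pairs at 10 to 90% read in both orientations, and C stood at the second base after it in 61.6% against 27.9%. C came directly before the CpG in 45.6% against 24.3%, and G in 7.11% against 29.4%. At MspI sites, where the neighbouring bases are fixed, the higher strand had T at the second base before the CpG in 63.8% of 149 called pairs against 22.5%, and C at the second base after it in 67.8% against 23.8%. The printed pairs of Gm24635, Sorbs3, Myo10, Lrp1 and Tjp3 all read CGCC on their higher strand, Sirpb1b reads TCCGGC, and Vmn2r29 reads GACGGA.

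The flanks were also read over all pairs at 10 to 90%, the called ones included. Each of the 120 sets of flanking bases that differ between the strands was read in the orientation that made its mean difference positive. A set held 41 to 1872 pairs, and the median difference was 2.25 points. Positive means follow from that choice, and the called pairs enter the means, so their counts below are not separate from them. The highest was CTCGCC, the flanks of the Tjp3 pair, at 9.40 ± 1.01 points over 510 pairs (SD over 16 libraries), and the CTCGCC strand was higher in 56 of its 56 called pairs. TCCGTC followed at 8.61 ± 0.869, with that strand higher in 30 of 31 called pairs, the Vmn2r29 pair being the one the other way. Next came TCCGCC at 8.53 ± 0.925, TTCGCC at 7.89 ± 0.943, TTCGTC at 7.60 ± 1.30 and CCCGCC at 7.36 ± 0.818, with 74 of 74 called pairs the same way for CCCGCC. The 16 sets that read the same on both strands, where no difference can be set by the flanks, lay between -0.751 and 1.31 points.

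CGCC, searched on both strands, began at the CpG on 1 strand only in 5760 pairs at 10 to 90%, 14.1% of them, and in 21.7% of all pairs. The strand with CGCC was higher by 5.52 ± 0.476 points (4.49 to 6.24 in the 16 libraries). Forward minus reverse was 5.47 points in the 2873 pairs with CGCC on the forward strand and -5.57 points in the 2887 pairs with it on the reverse strand. Such pairs were 271 of the 866 called (31.3%), with CGCC on the higher strand in 266. Of the pairs with CGCC on 1 strand 4.70% were called, and of those with it on neither 1.70%. The difference was 8.14 points at 30 to 70%, 4.58 at 10 to 30% and 3.81 at 70 to 90%, and 4.30 points without the called pairs. With 30 or more reads per strand it was 3.52 points over 333 pairs. The sequence patterns were noticed in these data and carry no test.

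On the X chromosome the difference between the strand with CGCC and the other strand was smaller. There 6010 pairs met the same depth rule. Of the 990 with CGCC on 1 strand at 10 to 90%, the strand with CGCC minus the other strand averaged -0.464 ± 0.508 points, above 0 in 3 of 16 libraries, against 5.52 points and 16 of 16 libraries on the autosomes. Within 1000 bp of a start the values were -0.707 points over 813 X pairs and 5.47 over 1744 autosomal pairs, and further from a start 0.654 ± 1.25 over 177 X pairs and 5.54 over 4016 autosomal pairs. The value also moved with CpG density. With 0 to 9 CpGs in 200 bp it was 1.18 ± 1.08 points over 105 X pairs, above 0 in 14 of 16 libraries, and 6.13 over 2709 autosomal pairs. With 20 to 99 CpGs, which held 482 of the X pairs, it was -0.574 points on the X and 3.15 over 875 autosomal pairs. The 34 such pairs of imprinted genes averaged -0.353 ± 2.13 points. Of the sets of flanking bases that differ between the strands, 93 had 10 or more X pairs at 10 to 90%. In the orientation taken from the autosomes, 34 of these 93 had the same sign on the X. The strands also lay closer together on the X at equal level: at 30 to 70% the excess difference was 6.44 ± 1.35 points over 2563 X pairs and 11.4 ± 0.446 over 13255 autosomal pairs, lower on the X in all 16 libraries. By the rule for called pairs, 6 of the 6010 X pairs were called, 0.156% of those at 30 to 70% against 4.76% on the autosomes. These comparisons were chosen after the autosomal values were seen and are given without a test.

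**Figure D4:**
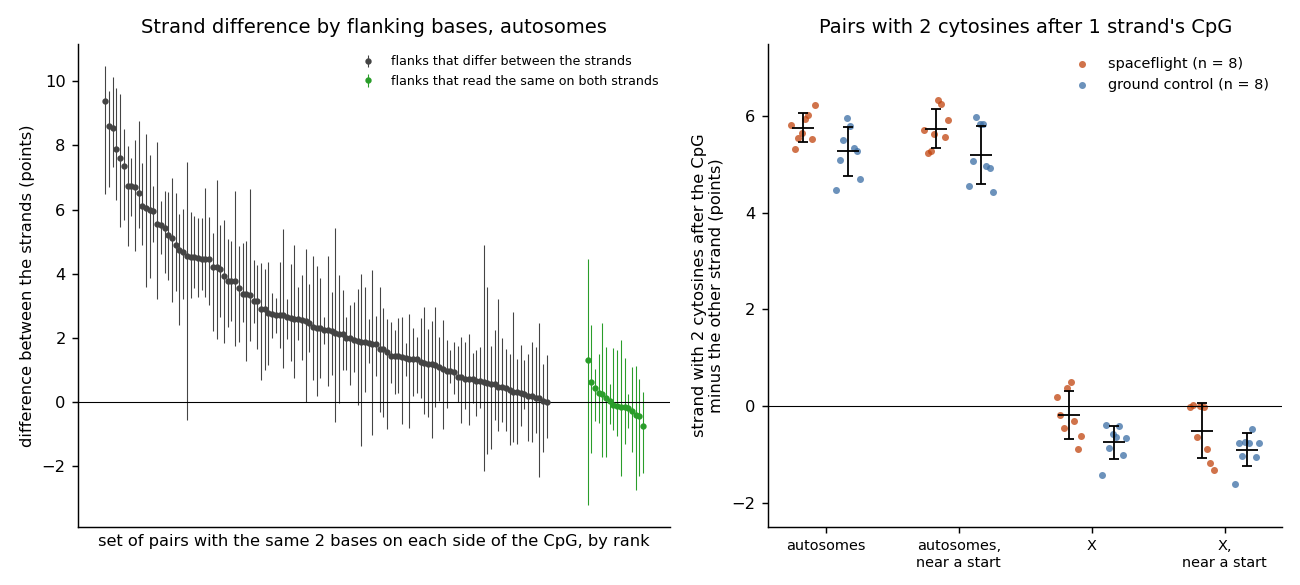
Left, mean difference between the strands (points, y axis) for each set of pairs with the same 2 bases on either side of the CpG, by rank, with the range over 16 libraries as bars. Sets whose flanks differ between the strands (black) run up to 9.40 points and palindromic sets (green) stay within -0.751 to 1.31. Right, the strand with CGCC minus the other strand (points, y axis) per library with mean and SD, spaceflight left of ground control, at about 5 points on the autosomes and near 0 on the X.

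Spaceflight and ground control mice were then compared, first with 1 value per library. The mean level of the forward cytosines was 19.21% ± 0.116 in spaceflight and 19.23% ± 0.122 in ground control mice (SD, n = 8 each, exact permutation p = 0.80), and that of the reverse cytosines 19.23% ± 0.120 in spaceflight and 19.24% ± 0.116 in ground control mice (exact permutation p = 0.87). Forward minus reverse was -0.0134 ± 0.00930 points in spaceflight and -0.00793 ± 0.00904 in ground control mice (exact permutation p = 0.249). The excess difference was 3.17 ± 0.229 points in spaceflight and 3.34 ± 0.219 in ground control mice, and spaceflight minus ground control was -0.161 points with a 95% interval of -0.405 to 0.0728 (exact permutation p = 0.178). Without ground control replicate 1 it was -0.0876 points (exact permutation p = 0.354). None of these measures told the groups apart. When the reads of all pairs were added up per library, so that deeply read CpGs weigh more, the level of spaceflight minus ground control mice was -1.35 points (exact permutation p = 0.0289). The mean over pairs gave -0.0125 points (exact permutation p = 0.833), and -0.0538 points without ground control replicate 1 (exact permutation p = 0.283).

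Of 13 such library measures, 1 had an unadjusted p under 0.05. The strand with CGCC exceeded the other by 5.77 ± 0.298 points in spaceflight and 5.27 ± 0.509 in ground control mice (n = 8 each, two-sided exact permutation p = 0.0337, adjusted 0.273), by 0.161 points more in the right eyes and 1.04 points more in the left eyes of spaceflight mice. Ground control replicates 1 and 8 had the lowest CGCC values of all libraries, 4.49 and 4.70 points. The next lowest, ground control replicate 2, had 5.09 points. The group difference without replicates 1 and 8 was not tested. The difference of the 866 called pairs was 31.4 ± 0.939 points in spaceflight and 30.6 ± 1.94 in ground control mice (exact permutation p = 0.355), -0.710 points in right and 3.20 points in left eyes. Ground control replicates 1 and 8, both left eyes, had the lowest values of this measure, and without them 979 pairs were called, 851 of the 866 among them.

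**Figure D5:**
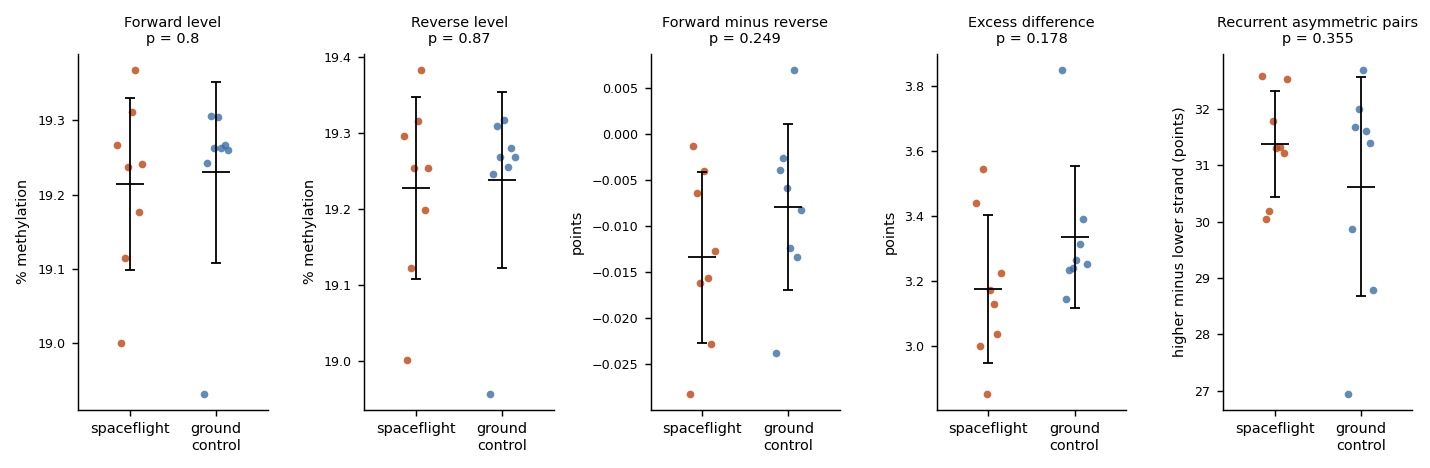
Library values (points) with mean and SD for 8 spaceflight mice (left) and 8 ground control mice (right): mean forward and reverse methylation (%), forward minus reverse, excess difference and the difference of the 866 recurrent asymmetric pairs (points), each with its exact permutation p. The axes do not start at 0, the groups overlap in every panel, and ground control replicate 1 is the lowest or highest ground control library in most panels.

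Single CpGs were tested with the strands added, in a quasi-binomial regression on group, over the 1071432 CpGs of autosomes and X with 10 or more reads in every library. With an adjusted p of at most 0.05 and 10 points, 0 CpGs were called (percent called 0), and the lowest adjusted p was 0.865. By the unadjusted p and 10 points 2015 CpGs passed (0.188), of which 84 were pairs, 31 higher and 53 lower in spaceflight mice. Those 84 were 0.206% of the pairs at 10 to 90%, and the other autosomal CpGs of that level passed in 0.959%. These sets differ in depth by rule. The pairs had 10 or more reads on each strand in every library, the others only 10 or more with the strands added. Fewer reads leave a wider counting error, so the percentages do not show that pairs differed less between the groups. The part of depth was not tested. At 4.74% of the pairs the unadjusted p was at most 0.05 whatever the size. Nothing was called on this scale, so the pairs below are values and not changes.

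Reading both strands gave each of these pairs an inner check. Tested alone, the forward cytosines passed the unadjusted rule at 491 pairs (0.153) and the reverse cytosines at 539 (0.168). Where the forward reads passed with spaceflight mice higher, their median difference was 11.7 points, and the reverse reads of the same CpGs had a median of 0.311 points. Where the forward reads passed with spaceflight mice lower, the medians were -11.5 points forward and -0.859 reverse. A group difference picked on 1 strand was thus near 0 on the other strand. At the 84 pairs chosen on both strands together, the medians were 12.5 points forward and 11.2 reverse for the 31 higher ones, and -10.9 and -11.2 for the 53 lower ones, and in 25 of the 84 both strands reached 10 points the same way. Those 84 were chosen at 10 points or more in the added reads, so like medians on both strands follow from the choice.

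The smallest p was that of a pair at an MspI site in an exon of Parvaos, which overlaps Parva, the gene of the focal adhesion protein parvin alpha. Its forward cytosine had 51.2, 64.2 and 70.3% in spaceflight and 64.4, 74.96 and 90.3% in ground control mice, and its reverse cytosine 50, 60.1 and 78.9% in spaceflight and 64.0, 74.8 and 79.6% in ground control mice. Over all reads of a group, these cytosines, read from different fragments, differed by -13.3 points forward and -14.6 reverse in spaceflight against ground control mice, with overlapping groups (quasi-binomial p = 0.000106, adjusted p = 0.865, exact permutation p of the mean of the strands = 0.000622). At a pair 3661 bp from the start of A930004D18Rik the forward cytosine differed by -13.7 and the reverse by -6.34 points, and at one outside genes, 23766 bp from the start of Lnx1, by -11.2 and -14.3 points. The named pairs with spaceflight mice higher were an exon of Gm13056 (17.9 points forward and 5.99 reverse), a site 11689 bp from the start of Gm41584 (15.8 and 13.5), an intron of the immunoglobulin heavy chain locus Igh (15.5 and 11.9) and an exon of Gm51690 (8.12 and 15.1).

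Of the 8 pairs named for the level, the Gm13056 pair alone had a mean of both strands without overlap between the groups, at 42.6, 48.6 and 57.03% in spaceflight and 30.7, 37.4 and 41.9% in ground control mice (two-sided exact permutation p = 0.000155, the smallest that 8 against 8 can give, adjusted p = 0.865 in the regression). The same pair differed by strand, at 52.97% forward and 33.1% reverse, a difference of 19.8 points that was of the other sign in some libraries. At the Igh pair the forward cytosine had 54.5, 63.2 and 70.5% in spaceflight and 31.1, 49.95 and 69.2% in ground control mice, and the reverse cytosine 59.0, 64.5 and 75.8% in spaceflight and 33.3, 51.3 and 69.4% in ground control mice. The spread was 5.06 points in spaceflight and 12.7 in ground control mice on the forward strand (SD, n = 8 each), and the group ranges overlapped.

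Where the strands differ, the added level also depends on how many reads each strand has. At the Vmn2r29 pair printed above the added level differed by -10.005 points in spaceflight against ground control mice, yet its forward cytosine differed by 0.272 points and its reverse cytosine by -5.06 points. The strands had a median of 23 and 135.5 reads, and the added level weights them by their reads in each library. Of the 84 pairs, 4 had an added difference larger than that of either strand, and 2 of these were recurrent asymmetric.

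The strand difference itself was compared between the groups by the log odds ratio of forward against reverse reads, stratified by library. At an adjusted p of at most 0.05 there were 0 of 321528 pairs (percent called 0), and the lowest adjusted p was 1. At 1.27% of the pairs the unadjusted p of this test was at most 0.05 whatever the size, against 4.74% in the test of the level. It thus gave few small p values over these mostly unmethylated pairs, and the lack of calls does not show equal strand differences. By the unadjusted p and 10 points 1175 pairs passed (0.365), 555 with the forward minus reverse difference higher and 620 lower in spaceflight mice. Of the 866 recurrent asymmetric pairs 13 were among these 1175. Over those 866 the group difference had a median of 3.98 points without regard to sign, 787 were under 10 points, and the largest was 18.2 points. By the rule for these pairs the same strand was the higher one in every library of both groups.

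The pairs with the smallest unadjusted p for that contrast had opposite signs on the strands. At a pair 2256 bp from the start of Helt, a transcription factor gene of midbrain neurons, forward minus reverse was 3.8, 11.9 and 18.2 points in spaceflight and -25, -4.0 and 2.5 points in ground control mice, without overlap (two-sided exact permutation p = 0.000155, the smallest that 8 against 8 can give, adjusted p = 1 in the test over all pairs). In an exon of Smarca2, the ATPase of the BAF chromatin remodeller, it was 0.55, 15.4 and 28.2 points in spaceflight and -23.1, -11.7 and 5.0 points in ground control mice. In an exon of Adam33, a membrane metalloprotease, it was -13.3, -9.2 and -0.8 points in spaceflight and -2.9, 0.9 and 12.6 points in ground control mice. Plekha2 (a phosphoinositide-binding adaptor), Zbtb39 (a zinc finger gene) and 4932431P20Rik had group differences of 22.9, -12.1 and -13.7 points with overlapping groups. At all 6 the adjusted p was 1. In the gene lists 0 of 2362 pairs passed the unadjusted rule for the level, which 84 of all 321528 pairs passed. The unadjusted rule for the strand difference was passed by 11 of the 2362 and by 0.365% of all pairs. Of these 11, 7 were among the 275 pairs of imprinted genes, 3 in germline and 1 in photoreceptor genes. Of the 275, 179 lay at 30 to 70%.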

How the data were processed

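RRBS libraries were made with the NuGEN Ovation kit and read as single ends of 75 bases. The authors used Trim Galore 0.4.5, NuGEN's trimming and removal of duplicates by random tags, and Bismark on GRCm38 (Bismark's version is not given here), and deposited 1 table per library in methylKit format. The deposited tables give, for each CpG cytosine with strands apart, the read count and the percent of reads methylated. Methylated reads were recomputed from these as whole numbers. The deposited RNA table was not used.

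Cytosines were joined into pairs with Python 3.11.15, numpy 2.4.6, scipy 1.17.1 and pandas 2.3.3, and matched to the RefSeq annotation and bases of GRCm38.p6, the same build. The strand test was a Mantel-Haenszel score test stratified by library, and group tests were a quasi-binomial regression and a log odds ratio of strands, each scaled by an overdispersion factor of at least 1 and adjusted by Benjamini-Hochberg over all pairs or CpGs tested. Values per library were compared by exact permutation tests (12870 splits, smallest p 0.000155) or exact sign-flip tests (65536 sign changes, smallest p 3.05e-05), two-sided. Group differences of single CpGs are between the percentages over all reads of a group. Nothing says that libraries share a batch, and the replicate numbers, given in order of the labels, pair no mice. The test code was tested on simulated data. Read counts set the precision, and intervals cover only what the mice and reads vary.

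Named pairs were the 8 with the largest recurrent difference in each direction (at most 1 per 1000 bp), the 4 in each direction with the smallest p between groups at 10 points or more, the 3 in each direction with the smallest p for the strand difference, the called pairs of the gene lists, and 8 near starts chosen after their values were seen. In the gene lists, genes were named from those with most pairs, and a result for one of them is not reported here. The pairs, lists and tests were chosen with earlier results of these data known. Alternatives changed the depth rule, the points, the sign rule, the overdispersion, the repeats, the MspI sites, the eyes and the libraries.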

Additional observations from a re-analysis of the deposited data

Results flagged for a closer look

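Ground control replicate 1 stood apart from the other 7 ground control libraries in 6 of the 15 library measures examined, by a gap to the nearest library that was large for the range of its group. Its forward level was 18.93%, with the others at 19.24 to 19.31%, its reverse level 18.96%, with the others at 19.25 to 19.32%, and its pair level 18.94%, with the others at 19.24 to 19.31%. Its excess difference between the strands was 3.85 points, with the others at 3.14 to 3.39 points. In pairs at 70 to 90% the excess was 8.12 points, with the others at 5.91 to 6.36, and at 90 to 100% it was 3.83 points, with the others at 2.32 to 2.82. This library is from a left eye and had a median of 42 forward reads per pair, and the part of either was not tested.

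At 3 named pairs a library stood apart in the same way. Forward minus reverse at the pair 28722 bp from the start of Erbin was 87.5 points in spaceflight replicate 7, with the other spaceflight libraries at 62.1 to 71.4. At 3110070M22Rik it was 42.3 points in spaceflight replicate 2, with the others at 57.2 to 63.6. At Vmn2r29 it was -75.0 points in ground control replicate 6, with the other ground control libraries at -87.2 to -82.0. Of 82 groups of 8 libraries examined 9 had such a library, 3 at these pairs and the rest by ground control replicate 1. Chance gives about 1 in 20 for a single group. The measures in which ground control replicate 1 stood apart overlap, so the groups are not independent and the 9 cannot be set against that rate.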

How the results depend on the processing

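Of 144 alternative values 123 were labelled the same as the main result. For differences with a p this meant the same direction and side of the threshold. For counts it meant a count equal to or near the main one, and for the CGCC difference a value within its SD. The pair level (spaceflight minus ground control, -0.0125 points) became 0.0255 points in left eyes alone, -1.35 points with reads summed (exact permutation p = 0.0289), and ran from -0.0538 to 0.0190 with 1 library left out. It was above 0 without spaceflight replicate 2 or 3. The excess difference between groups ran from -0.214 to -0.0876 points. The 866 recurrent asymmetric pairs of 321528 became 355 of 94481 with 20 reads per strand and 76 of 16630 with 30. This rule removes pairs and leaves the values of the rest as they were. The 866 became 1393 at 10 points, 357 at 30 points and 1398 with the same sign and 10 points but no test. With 1 library left out 874 to 943 were called. Added after the data were seen, 708 were called with strands within 2-fold in reads and 848 with at most 500 reads. Without an overdispersion factor 25 of the pairs passed the adjusted p and 10 points for the level, against 0 with it. For the strand difference 1 pair passed the adjusted p and 10 points, against 0 with it. The 84 pairs passing the unadjusted rule became 13 of the 94481 with 20 reads and 1 of the 16630 with 30. They became 73 to 139 with 1 library left out, 139 without ground control replicate 3. The 1175 strand differences became 324 of the 94481 with 20 reads, 75 of the 16630 with 30, and 2050 of all pairs without the factor. The causes were not tested. Depth limits each single cytosine, so only large or recurrent differences could be seen. No paired analysis was possible because the replicate numbers only follow the order of the labels and pair no mice.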
